A study of Homo sapiens with 6 samples.

Results

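Interferon-stimulated genes are the genes that cells switch on when interferon binds its receptors. This account covers 45 of them in HK2 cells, an immortalised human kidney proximal tubule line, after knockdown of OCRL, a phosphoinositide 5-phosphatase of endosomes. The genes were given as a list of symbols, and each was read from the brightest probe set, by its mean over the arrays, of those annotated to that symbol alone. In this way 44 of the 45 were measured, out of 11963 genes on the array, and STAT2 had no probe set named here. Control cells received a non-targeting siRNA and knockdown cells an OCRL siRNA, both with the lipid reagent Dharmafect 4 at 30% confluence and for 96 h, in DMEM F12 medium with insulin, transferrin and selenium. Each group held 3 Affymetrix arrays from independent experiments (6 in total), and this small number of arrays limits the precision. OCRL itself was at 9.49, 9.48 and 9.50 (log2 intensity) on the control arrays and at 7.52, 7.49 and 7.40 on the knockdown arrays, a 4.06-fold fall (adjusted p = 1.24e-05, limma).

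As background, type I and type III interferons act through JAK kinases on transcription factors that join IRF9 in a complex, which binds an element called the ISRE in the promoters of these genes. The products block viruses at many steps. Some bind or degrade viral RNA, some conjugate the small modifier ISG15 to proteins, and others act at membranes or in the nucleus. In tubule epithelium, as in most cells, a low basal level of many of these genes is present without added interferon. Double-stranded RNA, sensed by TLR3, RIG-I and MDA5, also induces them.

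The promoters of 6 of the genes are shown because they bear on the pattern described below: IFI44 and IFI44L had the largest rises, HERC5 rose while its substrate gene ISG15 did not pass the test, and IFIT3 rose while IFIT5 in the same gene cluster did not pass. Sequences are from RefSeq on GRCh38.p14, 5′ to 3′ on the strand of the gene, from 250 bases before the annotated start through the first 10 bases from it. Capitals mark each match to an ISRE-type motif, searched on either strand as the letters GAAA, any 2 bases and GAAA again (on the opposite strand TTTC, any 2 bases and TTTC).
IFI44 (plus strand, chr1:78649539-78649798): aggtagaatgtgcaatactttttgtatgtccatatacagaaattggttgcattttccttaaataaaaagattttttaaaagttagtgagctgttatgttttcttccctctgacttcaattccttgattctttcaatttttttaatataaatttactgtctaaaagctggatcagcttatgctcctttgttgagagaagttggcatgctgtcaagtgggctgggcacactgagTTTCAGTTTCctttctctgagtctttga
IFI44L (plus strand, chr1:78620198-78620457): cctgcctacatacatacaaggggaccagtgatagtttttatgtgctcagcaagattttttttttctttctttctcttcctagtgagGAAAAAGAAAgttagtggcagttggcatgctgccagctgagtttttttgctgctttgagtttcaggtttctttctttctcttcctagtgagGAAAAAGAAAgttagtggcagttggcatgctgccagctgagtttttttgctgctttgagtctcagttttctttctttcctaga
HERC5 (plus strand, chr4:88456869-88457128): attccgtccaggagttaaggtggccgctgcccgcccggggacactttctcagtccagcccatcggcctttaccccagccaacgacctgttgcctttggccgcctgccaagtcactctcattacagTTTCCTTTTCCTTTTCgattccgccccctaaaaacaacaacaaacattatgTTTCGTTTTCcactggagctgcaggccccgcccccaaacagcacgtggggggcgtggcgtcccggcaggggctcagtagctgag
ISG15 (plus strand, chr1:1013247-1013506): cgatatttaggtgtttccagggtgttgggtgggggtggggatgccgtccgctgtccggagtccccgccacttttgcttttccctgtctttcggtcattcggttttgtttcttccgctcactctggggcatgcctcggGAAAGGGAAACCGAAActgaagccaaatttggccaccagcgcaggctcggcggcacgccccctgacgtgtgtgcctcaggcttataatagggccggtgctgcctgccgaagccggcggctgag
IFIT3 (plus strand, chr10:89327747-89328006): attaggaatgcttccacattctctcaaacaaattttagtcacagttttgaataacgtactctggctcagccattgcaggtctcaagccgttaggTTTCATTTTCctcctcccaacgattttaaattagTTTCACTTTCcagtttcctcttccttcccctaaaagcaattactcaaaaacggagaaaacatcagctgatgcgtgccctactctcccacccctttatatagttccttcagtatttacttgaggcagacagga
IFIT5 (plus strand, chr10:89414318-89414577): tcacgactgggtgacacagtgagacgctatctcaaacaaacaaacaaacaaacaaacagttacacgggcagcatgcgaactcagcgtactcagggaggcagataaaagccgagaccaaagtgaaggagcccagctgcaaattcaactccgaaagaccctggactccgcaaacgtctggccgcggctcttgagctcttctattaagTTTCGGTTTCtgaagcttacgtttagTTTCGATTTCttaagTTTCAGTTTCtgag
Each of the 6 held at least 1 match, and the 2 matches of ISG15 overlap, as do the first 2 of the 3 in HERC5. Genes that rose and genes that did not pass thus both held it.

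After the knockdown 21 of the 44 interferon-stimulated genes rose, 2 fell and 21 did not pass the test, at an adjusted p under 0.05 in limma over all probe sets. The 21 that rose were 47.7% of those measured, whereas 15.5% of all genes were called higher. The list was chosen with earlier results of these data known, so the shares given here describe it and are no independent test. The 2 that fell were 4.55%, against 10.5% of all genes. Calls in either direction were made for 26.0% of all genes. The median log2 difference, knockdown minus control, was 0.22 over the 44 genes and 0.0005 over all genes. Rises were mostly moderate: 8 of the 44 rose at least 1.5-fold (18.2%, against 2.51% of all genes) and 3 at least 2-fold (6.82%, against 0.552%). A higher mean in knockdown cells was found for 36 of the 44, or 81.8%, against 50.1% of all genes. In bulk RNA, a change in the number of responding cells and a change in RNA per cell cannot be told apart. Each knockdown array carried the OCRL siRNA, so an effect of that siRNA on these genes and an effect of lower OCRL cannot be told apart either.

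The shift was present on each knockdown array. Measured from the control mean of each gene, the median over the 44 genes was 0.20, 0.27 and 0.24 on the 3 knockdown arrays and -0.012, -0.012 and 0.017 on the 3 control arrays. On the knockdown arrays 31, 33 and 31 of the 44 genes lay above all 3 control values. The same median over all genes lay between -0.0095 and 0.011 on every array. The groups did not overlap for 28 of the 44 genes (63.6%, against 44.9% of all genes), 25 of them higher in knockdown cells (25.1% of all genes were). Among those 28, 5 did not pass the test: IFITM1, BST2, PML, IFI27 and IFI6. The share of called genes that were higher depended on scaling over the whole array, 59.7% as deposited and 44.8% after median centring of each array, but was 91.3% for these genes in both.

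**Figure D1:**
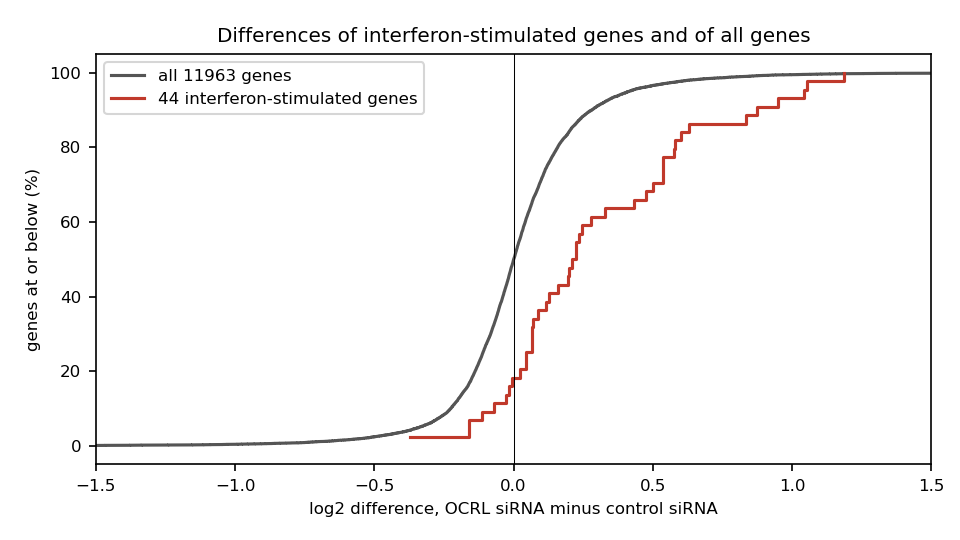
Cumulative share of genes (%, vertical axis) at or below a given log2 difference, knockdown minus control (horizontal axis), for the 44 interferon-stimulated genes (red) and all 11963 genes (grey). The red curve lies to the right over most of its range, with a median of 0.22 against 0.0005, and starts at the fall of TNFSF10 (-0.37).

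The largest rises belonged to the IFI44 pair. IFI44 and IFI44L encode related proteins with a GTPase-like domain that have been linked to antiviral defence, and the genes are immediate neighbours on chromosome 1. IFI44 was at 8.36, 8.19 and 8.34 (log2 intensity) in control cells and 9.53, 9.46 and 9.45 in knockdown cells. Its lowest knockdown array lay more than 1 log2 unit above its highest control array. The difference was 1.19 (SE 0.060, adjusted p = 6.46e-05, limma), a 2.27-fold rise. IFI44L was at 7.52, 7.31 and 7.48 in control and 8.51, 8.52 and 8.43 in knockdown cells, a 2.08-fold rise (1.05, SE 0.066, adjusted p = 1.21e-04). Both groups were tight and far apart in both genes. A second, dim probe set of IFI44 (mean below the lower quartile of the arrays) had a difference of 0.21 and did not pass (adjusted p = 0.132).

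Of 5 genes grouped here around ISG15, 4 rose, where 15.5% of all genes were called higher, and ISG15 itself did not pass. ISG15 is a ubiquitin-like protein that the conjugating enzyme UBE2L6 and the ligase HERC5 attach to target proteins and that the protease USP18 removes. UBE2L6 was at 8.59, 8.57 and 8.61 in control cells and 9.54, 9.64 and 9.71 in knockdown cells (log2 intensity), a 2.06-fold rise (log2 difference 1.04, SE 0.053, adjusted p = 6.83e-05, limma). USP18, which also dampens signalling from the type I receptor, was at 6.47, 6.77 and 6.78 against 7.53, 7.75 and 7.35, a 1.83-fold rise (0.87, SE 0.124). All 3 knockdown arrays exceeded all 3 control arrays for both enzymes, with USP18 the more scattered. HERC5 was at 10.16, 10.17 and 10.22 against 10.80, 10.83 and 10.81 (1.55-fold, 0.63, SE 0.041), and its neighbour on chromosome 4, the related gene HERC6, was at 7.75, 7.93 and 7.87 against 8.31, 8.45 and 8.39 (1.45-fold, 0.54, SE 0.065). ISG15 was at 10.07, 10.10 and 10.18 in control and 10.21, 10.22 and 10.12 in knockdown cells, so its groups overlapped. Its difference was 0.066 with a 95% interval of -0.059 to 0.19 (adjusted p = 0.433). UBE2L6, USP18, HERC5 and HERC6 had lower interval bounds of 0.92, 0.58, 0.53 and 0.38, in that order, all above the upper bound of ISG15.

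**Figure D2:**
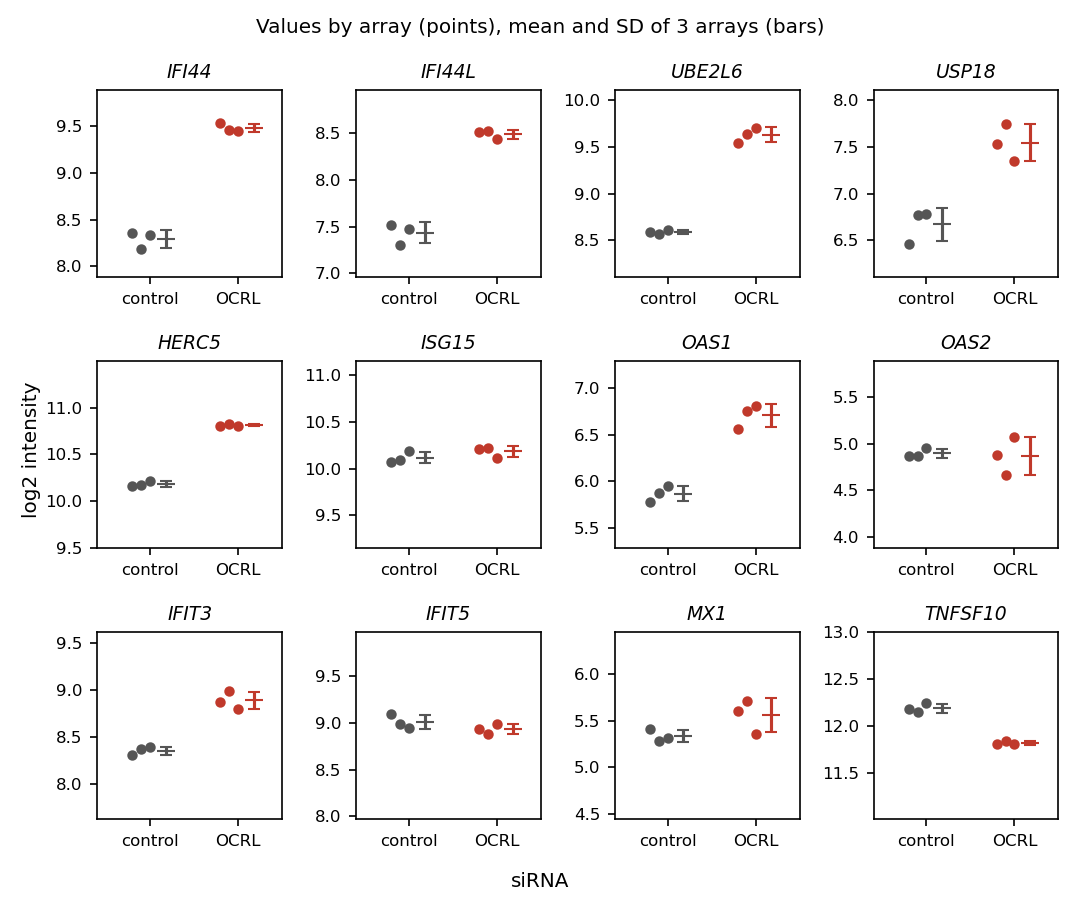
Log2 intensity (vertical axes, each spanning 2 log2 units) on the 3 control and 3 knockdown arrays for 12 interferon-stimulated genes; points are arrays and bars the mean with SD of 3. IFI44, IFI44L, UBE2L6, USP18, HERC5, OAS1 and IFIT3 separate fully upward and TNFSF10 downward, whereas the groups of ISG15, OAS2, IFIT5 and MX1 overlap.

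Of the 3 transcription factor genes measured, 2 rose, where 15.5% of all genes were called higher. IRF9, a DNA-binding part of the complex named above, was at 8.45, 8.56 and 8.44 in control cells and 8.69, 8.90 and 8.84 in knockdown cells (log2 intensity), a 1.25-fold rise (log2 difference 0.33, SE 0.068, adjusted p = 0.0142, limma). IRF1, an activator that responds to interferon gamma and other stimuli, was at 7.87, 7.80 and 7.83 against 8.02, 8.09 and 8.11 (1.18-fold, 0.24, SE 0.047, adjusted p = 0.0119). The groups did not overlap in either gene. The call of IRF9 was lost without control replicate 3 (0.31, adjusted p = 0.0539) or OCRL siRNA replicate 3 (0.31, adjusted p = 0.0557), and that of IRF1 without OCRL siRNA replicate 3 (0.22, adjusted p = 0.0511), with differences close to those over all arrays. IRF7, the factor that amplifies interferon production, was at 6.58, 6.64 and 6.63 in control and 6.65, 6.77 and 6.38 in knockdown cells. Its groups overlapped and its 95% interval ran from -0.25 to 0.22.

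Of the 4 IFIT genes, 2 rose, where 15.5% of all genes were called higher. IFIT3 was at 8.30, 8.37 and 8.39 (log2 intensity) in control cells and 8.88, 8.99 and 8.80 in knockdown cells, a 1.45-fold rise (log2 difference 0.54, SE 0.059, adjusted p = 0.00108, limma). IFIT1 was at 7.87, 7.85 and 7.91 against 8.11, 8.14 and 8.10, a smaller rise of 1.18-fold (0.24, SE 0.041, adjusted p = 0.00636). Both were fully separated between the groups. IFIT2 had a difference of 0.023 with an interval of -0.26 to 0.30, and its second knockdown array (7.30) stood above the others (6.85 and 6.93). IFIT5 was at 9.09, 8.99 and 8.95 against 8.94, 8.88 and 8.99, with an interval of -0.20 to 0.061. The other probe set of IFIT5 was lower on every knockdown array than on any control array. It did not pass (-0.14, interval -0.28 to 0.0091, adjusted p = 0.166, limma). The 4 genes lie together on chromosome 10 in the order IFIT2, IFIT3, IFIT1 and IFIT5, with 1 other protein-coding gene between IFIT3 and IFIT1, so the 2 that rose were flanked by the 2 that did not pass.

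The oligoadenylate synthetases, which make the messenger that activates the RNA-degrading enzyme RNase L, were likewise divided. OAS1 was at 5.78, 5.88 and 5.95 (log2 intensity) in control cells and 6.56, 6.75 and 6.80 in knockdown cells, a 1.78-fold rise (log2 difference 0.84, SE 0.078, adjusted p = 5.48e-04, limma), and its other probe set also rose (0.60, adjusted p = 0.00984). OAS3 was at 8.30, 8.37 and 8.24 against 8.79, 8.78 and 8.84, a 1.41-fold rise (0.50, SE 0.049). These genes showed no overlap between the groups. OAS2, which adjoins OAS3 on chromosome 12, was at 4.87, 4.86 and 4.95 against 4.88, 4.66 and 5.07, and had a second probe set that did not pass either (-0.02, adjusted p = 0.878). OAS2 was under the lower quartile on all arrays, and no difference was detectable at that level. The relative OASL, which lacks synthetase activity, differed by 0.071 with a wide interval of -0.28 to 0.43. Its other probe set had a narrower interval of -0.016 to 0.22 and did not pass either.

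Among restriction factors, 2 of 10 rose, a share near the 15.5% of all genes, and 1 fell. ISG20, an exonuclease that degrades RNA, was at 6.29, 5.84 and 6.15 (log2 intensity) in control cells and 7.05, 7.02 and 7.05 in knockdown cells, a 1.93-fold rise (log2 difference 0.95, SE 0.108, adjusted p = 0.00121, limma), and its other probe set rose by 0.67. DDX60, a helicase linked to sensing of viral RNA, was at 8.28, 8.15 and 8.30 against 8.97, 8.71 and 8.85, a 1.52-fold rise (0.60, SE 0.078, adjusted p = 0.00214). Both were higher on every knockdown array than on any control array. The dynamin-like GTPase gene MX1, often used as a marker of interferon exposure, was at 5.41, 5.28 and 5.32 against 5.60, 5.71 and 5.36 and did not pass (difference 0.22, adjusted p = 0.139). It passed without OCRL siRNA replicate 3 (0.32, adjusted p = 0.0257), the array whose value overlapped the controls. Its neighbour MX2 (0.044) and the radical SAM enzyme gene RSAD2 (0.13) lay below the lower quartile of all arrays and did not pass. RSAD2 was at 4.72, 4.79 and 5.02 against 4.88, 4.82 and 5.21.

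Of the few genes for membrane proteins in this group, none was called, where 26.0% of all genes were called in either direction. BST2, the tether that holds budding virions, was at 10.59, 10.60 and 10.62 (log2 intensity) against 10.73, 10.66 and 10.68, and its interval of -0.012 to 0.19 lay within 1.2-fold of no change. LY6E, a surface protein that limits entry of some viruses, had an interval of -0.065 to 0.20. IFITM1, which restricts membrane fusion, was higher on all knockdown arrays, at 7.38, 7.52 and 7.60 against 7.28 to 7.30, but just missed the threshold (difference 0.21, adjusted p = 0.052, limma). It passed in 5 of 14 other settings, among them without OCRL siRNA replicate 1 (adjusted p = 0.0193). SAMD9, a translation-blocking factor, differed by 0.12 (adjusted p = 0.328) and passed only without OCRL siRNA replicate 2 (0.0414). PARP12, a mono-ADP-ribosyltransferase, fell by 0.16 (SE 0.047, adjusted p = 0.0488, limma), from 8.70, 8.74 and 8.68 to 8.50, 8.60 and 8.54. The call of this 1.12-fold fall was lost when any single array, of either group, was left out (adjusted p = 0.0574 to 0.147), while the difference stayed between -0.19 and -0.14.

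Genes of nuclear bodies rose in part. SP100, a constituent of PML bodies, was at 9.46, 9.53 and 9.50 (log2 intensity) in control cells and 9.96, 10.02 and 10.12 in knockdown cells, a 1.45-fold rise (log2 difference 0.54, SE 0.054, adjusted p = 7.61e-04, limma). Its relative SP110, nearby on chromosome 2, was at 9.02, 9.03 and 9.13 against 9.58, 9.71 and 9.61, a 1.49-fold rise (0.58, SE 0.055). The scaffold gene of the same bodies, PML, went the other way without passing, at 8.44, 8.44 and 8.38 against 8.25, 8.35 and 8.33 (-0.11, adjusted p = 0.142), and among 7 further probe sets of PML 1 was called lower. TRIM14, an adaptor of antiviral signalling, was at 9.66, 9.71 and 9.61 against 9.87, 9.89 and 9.89, a 1.17-fold rise (0.23, SE 0.045, adjusted p = 0.0124). The TRIM14 call was lost without OCRL siRNA replicate 3 (adjusted p = 0.0509), and none of its 3 other probe sets passed. TRIM21, an antibody receptor of the cytosol, differed by 0.16 (adjusted p = 0.268), and TRIM22, below the lower quartile of all arrays, by -0.16 (adjusted p = 0.514).

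Of the guanylate-binding proteins, GTPases that attack the vacuoles of intracellular pathogens, GBP2 was at 8.24, 8.11 and 8.30 (log2 intensity) in control cells and 8.71, 8.54 and 8.70 in knockdown cells, a 1.35-fold rise (log2 difference 0.43, SE 0.071, adjusted p = 0.00565, limma). The adjacent gene GBP1 overlapped between the groups, at 9.98, 9.68 and 9.71 against 10.08, 9.85 and 10.03 (0.20, adjusted p = 0.200). The other probe set of GBP1 passed (0.25, adjusted p = 0.0243), and the main one passed without control replicate 1 (0.29, adjusted p = 0.0472), its highest control. For GBP1 the answer therefore depended on the probe set and on 1 array.

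Of 4 genes with other roles 3 rose, where 15.5% of all genes were called higher. IFI35, a partner of the interferon-induced protein NMI, was at 7.64, 7.75 and 7.79 (log2 intensity) in control and 8.30, 8.35 and 8.26 in knockdown cells. This was a 1.495-fold rise (log2 difference 0.58, SE 0.055, adjusted p = 6.10e-04, limma). The DNA sensor IFI16 was at 10.46, 10.36 and 10.34 against 10.92, 10.85 and 10.83 (1.39-fold, 0.48, SE 0.053), and both of its other probe sets rose (0.40 and 0.43). The scramblase gene PLSCR1 was at 11.51, 11.56 and 11.56 against 11.81, 11.83 and 11.82 (1.21-fold, 0.28, SE 0.040), but its other probe set did not pass (0.071, adjusted p = 0.648). None of these 3 genes overlapped between the groups. LGALS3BP, a secreted glycoprotein that binds galectins, had an interval of -0.061 to 0.15.

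Among only 4 genes linked to cell death, none was called higher, against 15.5% of all genes, and 1 was called lower, against 10.5%. TNFSF10 encodes the death ligand TRAIL and fell. It was at 12.18, 12.15 and 12.24 (log2 intensity) in control cells and 11.81, 11.84 and 11.80 in knockdown cells, 1.30-fold lower (SE 0.044 around a log2 difference of -0.37, adjusted p = 0.00143, limma). Every knockdown array lay below every control array, and both other probe sets fell (-0.43, adjusted p = 0.00135, and -0.69, adjusted p = 0.00934). IFI27, which is among the most inducible genes of interferon-treated epithelium, was at 5.48, 5.36 and 5.52 against 5.62, 5.78 and 5.54 and did not pass (0.20, adjusted p = 0.115). The related gene IFI6 was at 8.70, 8.75 and 8.74 against 8.79, 8.80 and 8.79, a difference of 0.065 with an interval of -0.029 to 0.16. XAF1, an antagonist of the caspase inhibitor XIAP, lay below the lower quartile of all arrays in both groups (-0.0043, interval -0.12 to 0.12).

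**Figure D3:**
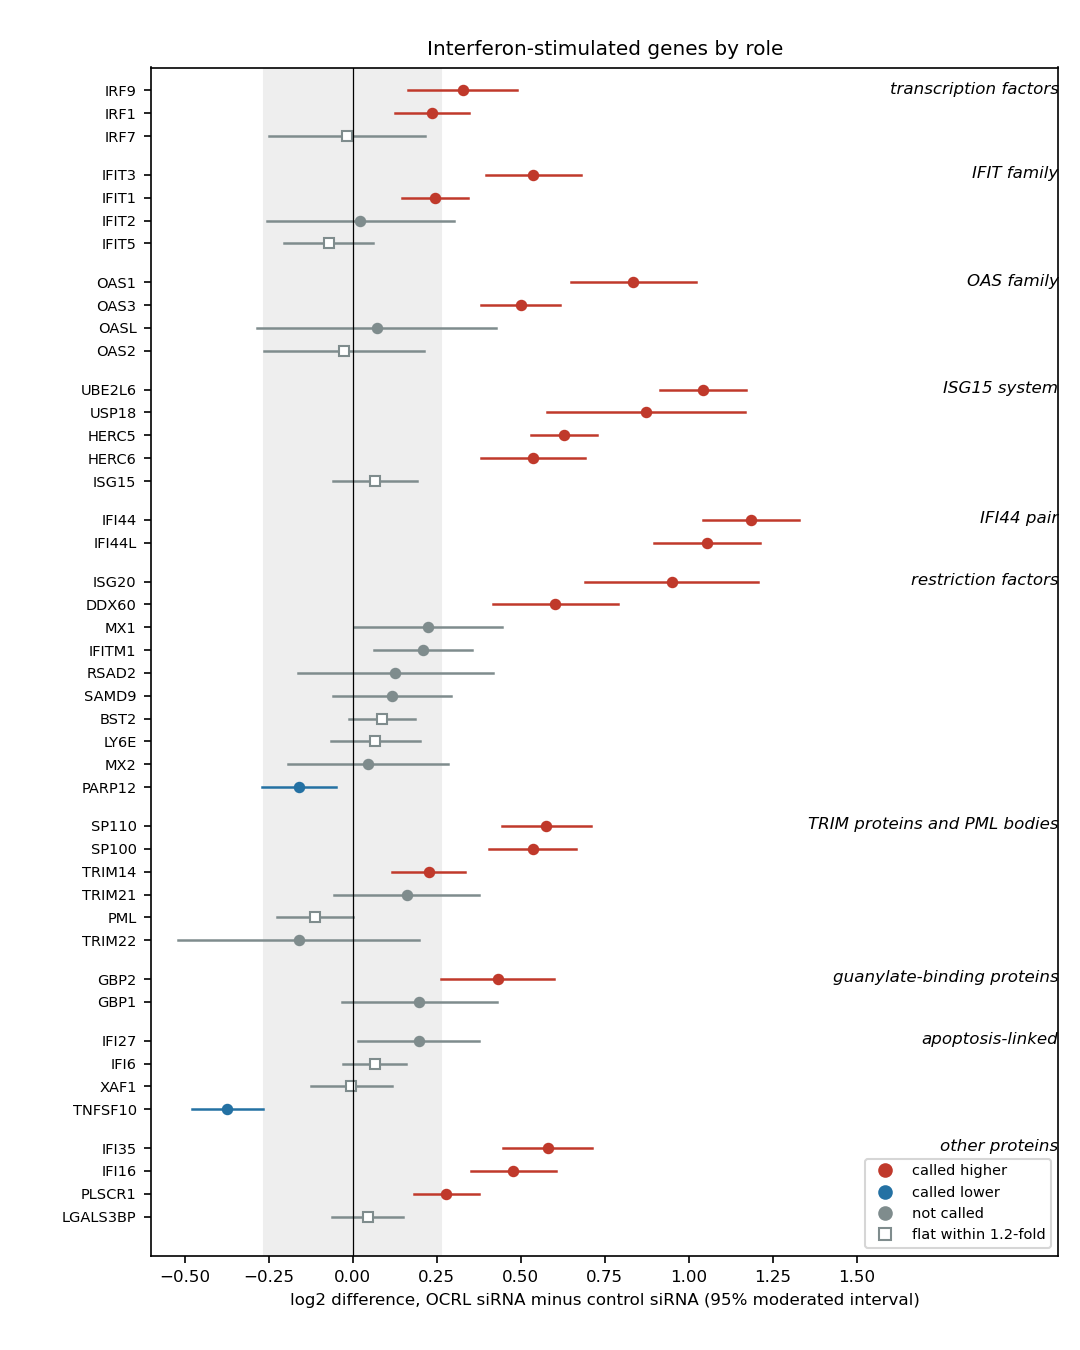
Log2 difference, knockdown minus control (horizontal axis), with its 95% moderated interval, for the 44 interferon-stimulated genes grouped by role; red, called higher; blue, called lower; grey, not called; open squares, interval within 1.2-fold of no change (grey band). IFI44, IFI44L and UBE2L6 lie farthest right, and ISG15, IFIT5, IRF7 and 7 more genes are flat.

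A gene was taken as flat where the whole 95% interval of its difference lay within 1.2-fold of no change in either direction, that is within 0.263 on the log2 scale. On the probe set read for each gene, this held for 10 of the 44 genes: IRF7, IFIT5, OAS2, ISG15, BST2, LY6E, PML, IFI6, XAF1 and LGALS3BP. They were 22.7% of those measured, whereas 42.0% of all genes were flat by the same rule. Of the 10, OAS2 and XAF1 were dim on all arrays (under the lower quartile) and the other 8 were not. For the remaining 11 genes that did not pass (IFIT2, OASL, MX1, MX2, IFITM1, RSAD2, SAMD9, TRIM21, TRIM22, GBP1 and IFI27), the interval reached past 1.2-fold, and a change of that size could not be told from none. Of these 11, 3 were dim in the same sense.

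Neighbouring genes were compared by their calls. Neighbours had at most 2 other protein-coding genes between them, and no share over all neighbouring genes was computed. Of 7 groups of neighbouring members in the RefSeq gene order, IFI44L with IFI44, HERC6 with HERC5 and SP110 with SP100 rose together. MX1 and MX2 did not pass, and MX2 was dim on all arrays. GBP1 and GBP2, the IFIT genes and OAS1, OAS3 and OAS2 each held members that rose and members that did not pass.

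The ISRE-type motif was frequent in the promoters of these genes whether or not they rose. RefSeq promoter windows of 300 bases (250 before to 50 after the start) matched 35 of the 45 symbols, some with more than 1 start, 47 windows in all. IRF7, IFIT2, OAS2, OASL, USP18, MX2, LY6E, TRIM22, PML and GBP2 were not matched. A match to the ISRE-type motif on either strand was found in 24 of the 35 genes (68.6%) and in 4.38% of all 27305 genes of the table, or 61.7% and 3.57% of windows. It was held by 10 of the 19 matched genes that rose, 12 of the 13 that did not pass and both that fell. Among flat genes, 5 of 6 held it, and XAF1 did not. IRF1, IRF9, OAS1, UBE2L6, HERC6, SP100, SP110, IFI16 and IFI35 rose without a match in these windows. The search fixed the spacing at 2 bases, so related runs with another spacing were not counted. Windows of OAS1 and XAF1, for example, hold GAAA, 1 base and GAAA. The GAS-type motif TTCNNNGAA, known from interferon gamma targets and its own reverse complement, was found in 11 of 35 genes (31.4%, against 9.38% of all), among them IRF1 and IRF9, and its stricter form TTCCNGGAA in BST2 and IFI27 only (5.71%, against 1.44%). Matches of the different motifs can share bases. A match is a run of letters and was not tested for binding.

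The pathway above these genes was read from lists of its other parts, which were chosen with earlier results of these data known. Interferon genes were near the floor of the arrays: of 14 measured, 12 lay below the lower quartile of all 6 arrays, IFNB1 among them at 4.62, 4.71 and 4.71 (log2 intensity) in control and 4.71, 4.89 and 4.61 in knockdown cells (adjusted p = 0.665, limma). Of these ligand genes IFNA1 was called higher (0.26) and IFNA17 lower (-0.25). They belong to a family of near-identical genes whose signals cannot be told apart with certainty. The IFNA1 call was lost without replicate 1 or 3 of either group, with the replicate block and after median centring, and that of IFNA17 without replicate 2 or 3 of either group and with a trended robust eBayes. Of 14 genes of receptors, JAK kinases, STAT and IRF factors, 3 rose (21.4%, against 15.5% of all genes) and 0 fell, with 5 at an unadjusted p under 0.05 in limma and up to 2 lower in other settings. IRF2, a relative of IRF1 that can repress its targets, rose by 0.39 (SE 0.057), the shared receptor chain gene IL10RB by 0.36 (SE 0.056) and the interferon gamma receptor chain gene IFNGR2 by 0.28 (SE 0.056). The type I receptor chain genes did not pass, at 1.08-fold higher for IFNAR1 (adjusted p = 0.168) and 1.04-fold lower for IFNAR2 (adjusted p = 0.350).

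Of 11 negative regulators of the pathway 2 rose (18.2%, against 15.5% of all genes) and 1 fell (9.09%, against 10.5%), shares near those of all genes. SOCS1, an inhibitor of JAK kinases that interferon induces, was at 6.58, 6.49 and 6.15 (log2 intensity) in control and 7.05, 7.18 and 6.84 in knockdown cells (log2 difference 0.62, SE 0.131, adjusted p = 0.0154, limma). Its groups did not overlap, but the call was lost without OCRL siRNA replicate 1 (adjusted p = 0.0506) or 2 (0.0514) and with the mean of its probe sets (0.117, adjusted p = 0.141). PIAS2 rose (0.19), a call that was lost without replicate 2 or 3 of either group, after quantile normalisation or median centring, and with 2 other choices of probe set (adjusted p = 0.0540 to 0.119 over these). PIAS3, an inhibitor of STAT3, fell (-0.52, SE 0.070).

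Sensors of double-stranded RNA rose in part. Of 16 nucleic acid sensors and adaptors, 5 rose (31.2%, against 15.5% of all genes) and 1 fell (6.25%, against 10.5%). TLR3, the endosomal sensor, was at 6.77, 6.66 and 6.63 (log2 intensity) in control and 7.53, 7.51 and 7.46 in knockdown cells (0.82, SE 0.052, adjusted p = 1.31e-04, limma). The cytosolic sensor RIGI was at 7.33, 7.26 and 7.39 against 7.91, 7.92 and 7.94 (0.59, SE 0.048), and its relative IFIH1 at 6.95, 6.71 and 6.68 against 7.27, 7.11 and 7.26 (0.44, SE 0.086). These 3 sensor genes, which interferon also induces, were separated between the groups. The nucleotide hydrolase gene SAMHD1 (0.43, SE 0.056) and the kinase gene IKBKE (0.21) rose and the adaptor gene MAVS fell (-0.16). The IKBKE call was lost without any of 5 arrays, all but OCRL siRNA replicate 3, and in 5 further settings, among them the replicate block (adjusted p = 0.0691) and median centring (0.0599). The MAVS call was lost without any 1 of the 6 arrays, with the replicate block (0.0646) and with _s_at and _x_at probe sets left out (0.0508). EIF2AK2, which encodes the RNA-activated kinase PKR, did not pass, with an interval of -0.016 to 0.20.

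Of 52 interferon-induced genes outside the list of 45, 19 rose (36.5%, against 15.5% of all genes) and 7 fell (13.5%, near the 10.5% of all genes), with a median difference of 0.12. These genes were chosen with earlier results of these data known, so their share of rises is no independent check of the listed genes. The count of rises dropped to 9 without control replicate 2, to 9 without OCRL siRNA replicate 2 and to 11 without OCRL siRNA replicate 3, and the count of falls was 2 to 4 without any 1 of the 6 arrays. The inducible proteasome subunits rose, with PSMB9 at 9.19, 9.33 and 9.42 (log2 intensity) in control and 10.53, 10.63 and 10.56 in knockdown cells (1.26, SE 0.068, adjusted p = 7.57e-05, limma), a larger difference than in any of the 44 listed genes. PSMB8 rose by 0.68 (SE 0.041), as did the deaminase gene APOBEC3G (0.68, SE 0.049) and the cytokine gene IL7 (0.97, SE 0.086). The complement gene CFB fell, from 8.77, 8.81 and 8.81 to 7.43, 7.50 and 7.55 (-1.30, SE 0.047), and the pterin synthesis gene GCH1 fell by 0.72 (SE 0.041). CFB depended on its probe set, since with _s_at and _x_at probe sets left out its difference was 0.012 (adjusted p = 0.951). The chemokine genes CXCL10 (adjusted p = 0.078) and CXCL11 (adjusted p = 0.720) did not pass. Both lay below the lower quartile of all arrays, so a response of either could be missed. CXCL10 was higher on every knockdown array than on any control array.

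**Figure D4:**
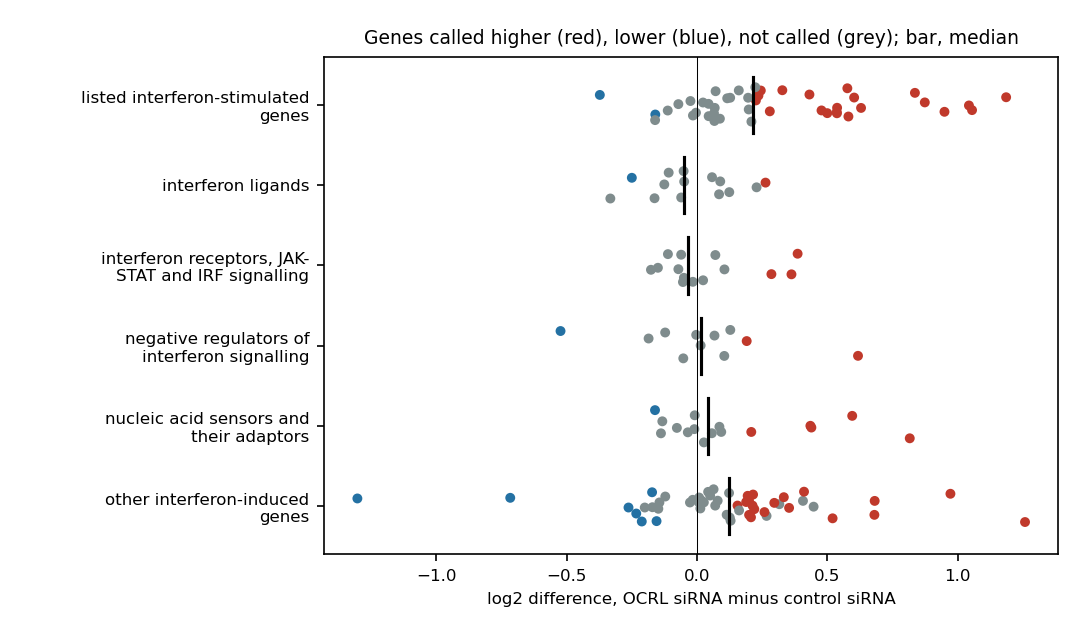
Log2 difference, knockdown minus control (horizontal axis), of each measured gene of the 44 interferon-stimulated genes and of 5 lists of other pathway genes; each point is a gene, with vertical scatter for legibility, red for called higher, blue for lower and grey for not called, and the bar is the median of the list. Medians were 0.22 for the 44 genes and between -0.05 and 0.12 for the other lists.

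Cell markers were read to check the label and the makeup of the cultures. Among 11 kidney epithelial genes, KRT18 (13.34 in control cells, log2 intensity), KRT8 (11.44), CDH6 (12.26) and PAX8 (11.21) were bright. PAX2 (5.89) and CDH16 (7.21) were lower, and 1 gene, CDH1 (4.62), lay below the lower quartile on all arrays. Among 12 proximal tubule genes 4 lay below it on all arrays, the megalin gene LRP2 (3.99) and the water channel gene AQP1 (4.98) included. Others of the 12 were brighter, such as SLC4A4 (10.93) and DPP4 (9.44). Of the 12, 4 rose (33.3%, against 15.5% of all genes) and 1 fell (8.33%, against 10.5%). Of 11 kidney epithelial genes 6 fell in knockdown cells (54.5%, against 10.5% of all genes). Their log2 values summed to between 105.4 and 105.8 on control arrays and between 101.1 and 101.5 on knockdown arrays; their part in the rise of the interferon-stimulated genes was not tested. Of 14 leukocyte genes 0 were called, against 26.0% of all genes, and 0 had an unadjusted p under 0.05 in limma. With a replicate block 1 was lower. The leukocyte marker PTPRC and 7 more lay below the lower quartile of all arrays, and the summed log2 values were 70.1 to 71.9 on control and 70.5 to 71.2 on knockdown arrays. Of 5 endothelial genes 0 were called, against 26.0% of all genes. In limma 2 had an unadjusted p under 0.05, and up to 1 in either direction was called in other settings. Of 6 fibroblast genes LUM fell (16.7%, against 10.5% of all genes).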

How the data were processed

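Total RNA of HK2 cells was labelled with biotin and hybridised to Affymetrix GeneChips, 1 array per sample. Deposited were log2 intensities per probe set, which the authors normalised across arrays. The submitters' processing notes name affy and RMA, whose versions are not given in the sources used here. RMA sets the arrays to a common distribution at the level of single probes and compresses differences of dim probe sets. The probe set values still differed: array medians were 7.23 to 7.24 for control and 7.27 to 7.30 for knockdown arrays. Of 22277 probe sets, 62 control probe sets were left out and 22215 tested. Gene names came from the platform annotation, with symbols updated through a RefSeq gene table (0 changed), where a probe set had a single symbol (19064 probe sets, against 1043 with several and 2108 with none).

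The comparison used limma 3.58.1 under R 4.3.3, with lmFit on a model that held the group alone and two-sided moderated tests from eBayes. P-values were adjusted by Benjamini-Hochberg across every tested probe set, and 0.05 was the threshold. SE and 95% intervals are the moderated ones, and below the lower quartile means on all 6 arrays. The fit and the motif search were tested on simulated data. Alternatives were a replicate block, each array left out, quantile normalisation, median centring, weights per array, a trended robust eBayes, removal of dim probe sets, _s_at and _x_at probe sets left out, other ways to read a gene from its probe sets, and a minimum of 1.2-fold.

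The 45 genes, their roles and the pathway and marker lists were chosen with earlier results of these data known. Genes were named by a rule: OCRL, all 45 genes, with values by array for up to 4 called members per role by size and for ISG15, MX1, IFIT1, OAS1, RSAD2, IFI27, STAT2 and IRF7, and of each pathway list the called genes, up to 6 by size, with IFNB1, IFIH1, EIF2AK2 and TLR3 by name. Array values of further members, and CXCL10, CXCL11, IFNAR1, IFNAR2 and the markers, were added after their values were seen. STAT2 was not analysed here, and 1 item is not reported here. Plots came from matplotlib 3.10.9 (Python 3.11.15).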

Additional observations from a re-analysis of the deposited data

How the results depend on the processing

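The count of genes that rose was 14 to 23 over the alternatives, against 21, and was 14 of 33 where probe sets ending in _s_at or _x_at were left out. Of the 21 genes, 17 passed in every setting run for them, and the calls of IRF1, IRF9, TRIM14 and IFI44 were lost in at least 1, that of IFI44 with the dim probe set only (adjusted p = 0.142). The count of genes that fell went from 2 to 1 with the replicate block, at a minimum of 1.2-fold and without any 1 array (1 in each case), since PARP12 was lost. With the replicate block the count of rises was 21. The replicate numbers were not taken as pairs: deviations from the group means correlated at 0.142, 0.123 and -0.00948 between same-numbered arrays, and control replicate 3 correlated best with OCRL siRNA replicate 2 (0.0961). The median difference was 0.17 after median centring, which also moved that of all genes, from 0.0005 to -0.0455. Among the 44 genes no called difference changed sign, and the sign turned only in genes not called in either setting. After quantile normalisation this was IFIT2 (-0.010), OAS2 (0.00404) and XAF1 (0.033), after median centring IFIT2 (-0.023), MX2 (-0.00212) and LGALS3BP (-0.00168), and with array weights OAS2 (0.00335) and XAF1 (0.024). Leaving out arrays gave ranges of -0.10 to 0.094 for IRF7, -0.12 to 0.11 for IFIT2, -0.13 to 0.078 for OAS2, -0.071 to 0.19 for OASL, -0.023 to 0.15 for MX2, -0.034 to 0.024 for XAF1 and -0.020 to 0.12 for IFNB1. The difference of CFB turned from -1.30 to 0.012 when _s_at and _x_at probe sets were left out. The count of flat genes was 7 to 12 against 10. OCRL passed in every setting that held a probe set of it. Dim probe sets limit what can be said of OAS2, MX2, RSAD2, XAF1 and TRIM22. MX1, SAMD9 and IFI27 were not dim on all arrays, but their control means (5.34, 5.45 and 5.45) lay near the lower quartiles of the arrays (5.23 to 5.31).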

Other observations

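Probe sets of the same gene did not always move together. SP100 has 5: the main one rose by 0.54 and a second by 0.66 (adjusted p = 9.03e-04, limma), while the other 3 did not pass (0.16, 0.065 and 0.20; adjusted p = 0.0753, 0.751 and 0.0595). Of the 4 of SP110, 3 rose (0.58, 0.58 and 0.63) and 1 did not pass (0.12, adjusted p = 0.190). Of the 8 of PML, 1 was called lower (-0.24, adjusted p = 0.0328). Which transcripts these probe sets read was not examined.

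The promoter window of IFI44L holds an exact repeat of 85 bases whose copies begin 91 bases apart, at positions -189 and -98 from the start, and each copy carries 1 of its 2 ISRE-type matches, at 164 and 73 bases before the start. The next longest exact repeat among the promoter windows of these genes was 29 bases, in IFI6, which was flat.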
